A study of Caenorhabditis elegans with 4 samples.

Results

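LET-418 peaks on the X chromosome of Caenorhabditis elegans larvae are described here from end to end. The members are all peaks on X in the series-wide peak list, 1896 of 13690 peaks in that list. The rule that picks them uses the chromosome alone, though it was set with earlier results of these data known. By the midpoint of the peak they fall into a left arm (below position 6137000), a right arm (above 12480000) and a centre between these bounds, on the WormBase WS220 assembly, with 624, 674 and 598 peaks. The separate lists of the ChIP replicates hold 86 (replicate 1) and 3097 (replicate 2) peaks on X. Chromatin immunoprecipitation followed by sequencing (ChIP-seq) was done on whole wild-type N2 animals at larval stage L3, in a population of males and hermaphrodites raised at 20 °C, with a polyclonal rabbit antibody against LET-418 that had been affinity-purified. All 4 samples, 2 ChIP and 2 input DNA, share this strain, stage and genotype. The labels do not say whether the replicates came from separate cultures, and whole animals give no view of single tissues.

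LET-418 is the worm counterpart of the nucleosome-remodelling ATPase Mi-2/CHD4. It works in the NuRD complex, which also carries histone deacetylase activity, and in the MEC complex, and it is known for keeping germline genes silent in somatic cells and for its part in vulval and larval development. X is set apart from the autosomes in this worm: hermaphrodites carry a pair and males a single copy, a condensin-based dosage compensation complex lowers X transcription in hermaphrodite somatic cells, and the chromosome is largely silent in the germ line and poor in genes expressed there. Worm autosomes have gene-dense centres and repeat-rich, highly recombining arms, and this contrast is milder on X.

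Along X, the right arm carried the most peaks for its length and the centre the fewest in both large lists. The right arm had 129 series-wide peaks per Mb (95% exact Poisson interval 119 to 139), the left arm 102 (93.9 to 110.0) and the centre 94.3 (86.9 to 102). In replicate 2 these densities were 207 (195 to 220.0) in the right arm, 174 (163 to 184) in the left arm and 149 (140 to 159) in the centre. Replicate 1, with few peaks on X, had another order. It had 6.68 peaks per Mb in the left arm (4.79 to 9.06), 5.54 in the right arm (3.71 to 7.95) and 2.52 in the centre (1.44 to 4.10). Peaks covered 3.35% of the left arm, 4.04% of the right arm and 2.91% of the centre in the series-wide list, and 0.188%, 0.159% and 0.0515% in replicate 1.

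The density of the right arm exceeded that of the centre in every list. The ratio was 1.36 in the series-wide list (95% exact interval 1.22 to 1.53, two-sided exact binomial p adjusted over 9 tests 1.44e-07), 1.39 in replicate 2 (1.27 to 1.52, adjusted exact p = 1.08e-12) and 2.19 in replicate 1 (1.15 to 4.33, adjusted exact p = 0.014). The left arm was less clear. Its ratio to the centre was 1.08 in the series-wide list (0.963 to 1.21, adjusted exact p = 0.21), which did not pass, but 1.17 in replicate 2 (1.07 to 1.27, adjusted exact p = 0.0011) and 2.65 in replicate 1 (1.45 to 5.06, adjusted exact p = 0.0012). The left arm was below the right arm in the series-wide list (ratio 0.790, 0.708 to 0.883, adjusted exact p = 6.84e-05) and in replicate 2 (0.838, 0.769 to 0.913, adjusted exact p = 9.74e-05). In replicate 1 that ratio was 1.21 (0.732 to 2.01, adjusted exact p = 0.47). These tests count peaks as independent, and since neighbouring peaks are often called together, their p-values are too small and all intervals over peaks too narrow.

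**Figure D1:**
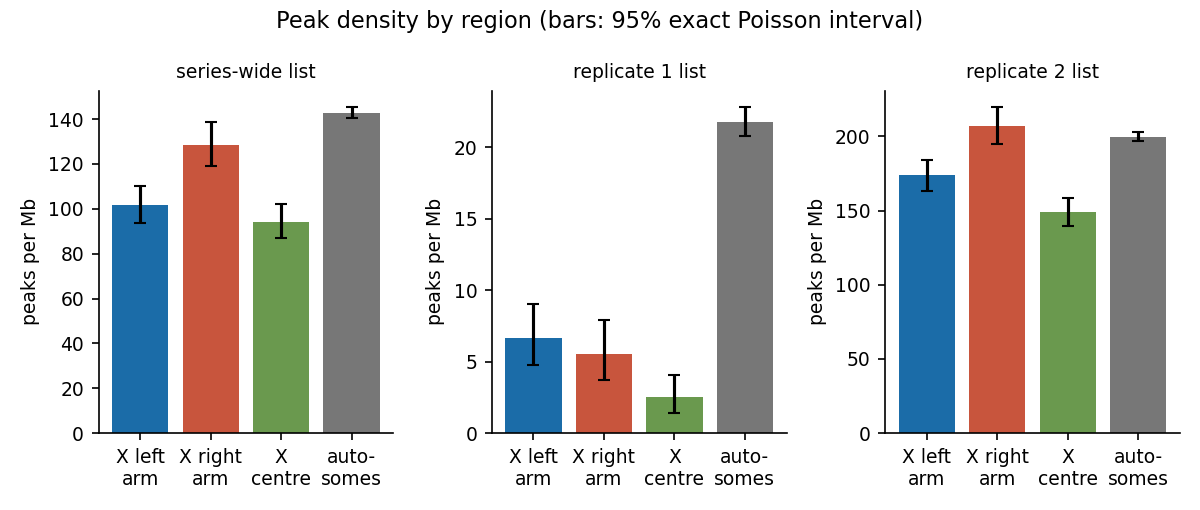
LET-418 peaks per Mb (y axis, one scale per panel) in the left arm, right arm and centre of X and on the autosomes, for the 3 lists, with bars for 95% exact Poisson intervals. The right arm stands above the centre in each panel, and the autosomal value of 21.8 peaks per Mb in replicate 1 is above all 3 regions of X.

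The excess of the arms in replicate 1 lay in a pair of crowded sites. The first 500 kb of X held 25 of the 86 replicate 1 peaks, and a stretch of 22.4 kb around the widest peak of replicate 2, on the right arm, held 12. Both sites were picked after the values were seen. Elsewhere replicate 1 had 16 peaks in the left arm (2.84 per Mb), 17 in the right arm (3.26 per Mb) and 16 in the centre (2.52 per Mb). Without both sites the ratio to the centre was 1.13 for the left arm (exact p = 0.86) and 1.29 for the right arm (exact p = 0.49). When replicate 1 peaks under 1 kb apart were merged, the ratio to the centre was 2.07 for the left arm (exact p = 0.020), still past the threshold, and 1.59 for the right arm (exact p = 0.19). In replicate 2 and the series-wide list the same sites held a small part of the X peaks, 103 and 76 in the first 500 kb and 8 and 6 at the wide site. The rest of the right arm still had 207 replicate 2 peaks per Mb, against 149 in the centre.

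**Figure D2:**
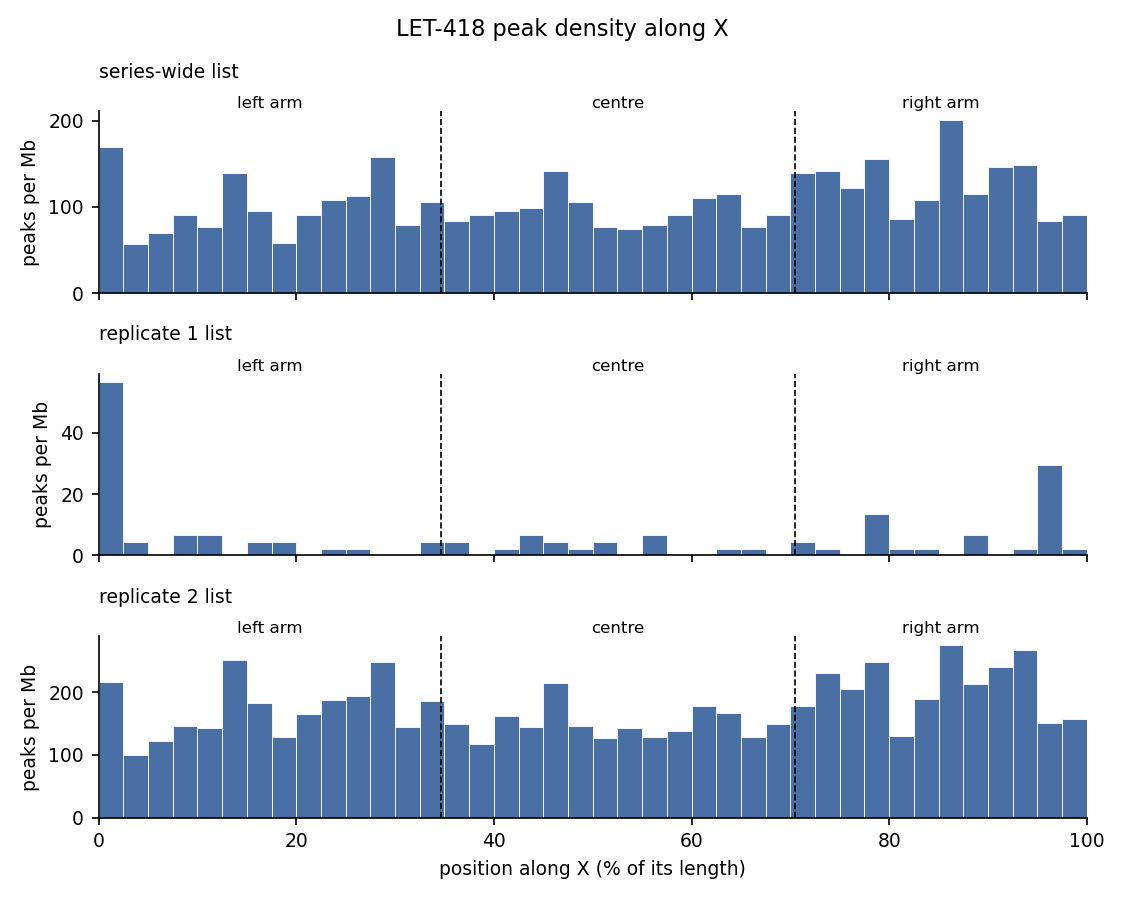
Peaks per Mb (y axis) in 40 windows of 2.5% of the length of X each (x axis, left end at 0%), with 1 panel per list and with dashed lines at the bounds of the centre. Replicate 1 is highest at the left end and next in 1 window near the right end, whereas the other lists are filled along the whole chromosome.

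Within the first 500 kb, replicate 1 had most of its peaks in the 2 stretches of 100 kb nearest the end, as the other lists did. The first 100 kb had 7, the next 100 kb 12, and the following stretches of 100 kb 4, 2 and 0. Replicate 2 had 29, 28, 12, 20 and 14 peaks in the same stretches, and the series-wide list 20, 25, 14, 14 and 3. The end itself was covered in replicate 2, whose first peak ran from X 1 to 334 (score 22.79) and whose last ended at X 17718866, with a score of 7.2. Neither of these had a counterpart in another list. The first series-wide peak was X 5310 to 6194, with a score of 16.57, and it overlapped the first replicate 1 peak (X 5378 to 5618, score 4.8).

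Counted in 35 bins of 500 kb, the series-wide list had 31 to 93 peaks per bin with a median of 52, replicate 2 had 52 to 127 with a median of 84, and replicate 1 had 0 to 25 with a median of 1. The densest series-wide bin was 15 to 15.5 Mb with 93 peaks, followed by 12.5 to 13 Mb with 84 and 16 to 16.5 Mb with 77, all on the right arm. Replicate 1 had 0, 3 and 1 peaks there, and replicate 2 had 127, 108 and 127. The sparsest series-wide bins were 1.5 to 2 Mb and 9 to 9.5 Mb, with 31 peaks each, then 0.5 to 1 Mb and 3 to 3.5 Mb, tied at 34. Replicate 2 had 52, 60, 52 and 67 peaks in these bins. Across the bins the series-wide and replicate 2 counts varied together (Spearman's rho 0.89). For replicate 1 rho was -0.06 with the series-wide list and -0.08 with replicate 2. Pearson's r was 0.25 and 0.16, and 0.067 and 0.10 without the first bin. With a median of 1 peak per bin, replicate 1 has many tied ranks, so these values cannot show whether it follows the other lists. The coefficients describe at most 35 neighbouring bins of 1 chromosome. How the series-wide list was made is not given in the sources used here, so it may share reads with both replicates.

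Peaks on X mostly lay more than 1 kb from the next, with fewer short gaps than on the autosomes. The median gap to the next series-wide peak was 2878.5 bp in the left arm (quartiles 554 and 11474), 2277 bp in the right arm (610.0 and 8899) and 2700.0 bp in the centre (418 and 10976), against 1343 bp on the autosomes. The regions differed more in their long gaps than in the median. Gaps over 20 kb made up 16.3% of gaps in the left arm, 11.4% in the right arm and 17.9% in the centre, against 9.59% on the autosomes. In replicate 2 these parts were 6.66%, 4.33% and 10.1%, against 5.66% on the autosomes, so the right arm was below the autosomes there. Gaps under 1 kb were 34.0% of the series-wide gaps in the left arm, 33.9% in the right arm and 37.1% in the centre, against 44.4% on the autosomes.

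In replicate 2 gaps under 1 kb made up 37.0% in the left arm, 39.6% in the right arm and 38.5% in the centre, against 47.2% on the autosomes. The centre thus had more long gaps than the right arm in both lists, whereas its part of short gaps was above that of the right arm in the series-wide list and below it in replicate 2. The longest peak-free gaps of the series-wide list were all in the left arm, at X 1698733 to 1833929 (135 kb), X 4019009 to 4136714 (118 kb) and X 1128847 to 1244331 (115 kb). Replicate 2 had 2, 4 and 7 peaks inside them and replicate 1 none. Replicate 1 had gaps above 1 Mb. Its longest, X 4522652 to 5764043 (1241 kb), held 135 series-wide and 226 replicate 2 peaks, and the next, X 10159017 to 11339329 (1180 kb) in the centre, held 104 and 175.

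**Figure D3:**
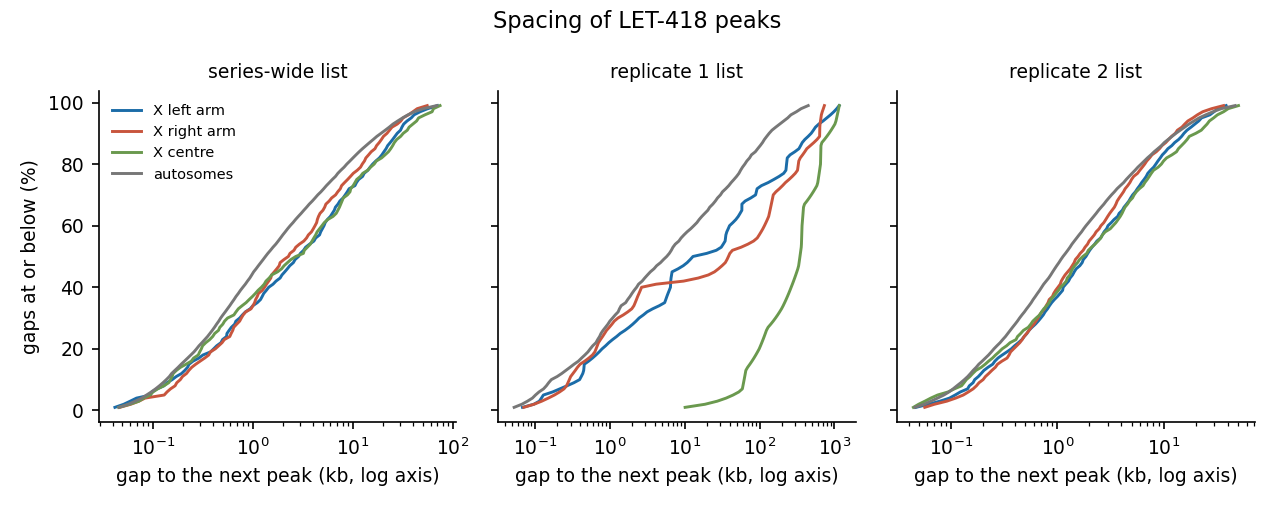
Share of gaps (y axis, %) at or below a given distance to the next peak (x axis, kb, log axis) for the left arm, right arm and centre of X and for the autosomes, in each list. In the series-wide and replicate 2 panels the X regions run close together, to the right of the autosomes near the median, and in replicate 1 the centre lies farthest to the right, with a median gap of 346 kb.

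When peaks under 1 kb apart were joined into runs, the 1896 series-wide peaks made 1234 runs, 913 of them of a single peak. The left arm had 67.1 runs per Mb, the right arm 85.1 and the centre 59.3, so the order of the regions was that of the single peaks. The runs with the most peaks on X were X 11471118 to 11483154 and X 12171720 to 12183746, both in the centre, with 16 series-wide peaks each over 12037 and 12027 bp. Replicate 2 had 12 and 13 peaks in these stretches and replicate 1 none. The next by number, X 2211743 to 2219728 in the left arm with 15 peaks and X 15273054 to 15281403 in the right arm with 14, also held no replicate 1 peak. The run after these, X 4136715 to 4148034 in the left arm, had 11 peaks over 11320 bp and held 1 replicate 1 peak.

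Replicate 1 was seldom seen at the crowded sites of replicate 2 on X. Of 129 replicate 2 runs of 4 or more peaks on X, 17 held a replicate 1 peak (13.2%, Wilson 95% interval 8.39 to 20.1), against 413 of 971 such runs on the autosomes, or 42.5% (39.5 to 45.7). The median of the highest score in a run was 35.4 on X and 37.2 on the autosomes. In the left arm 6 of 42 such runs held a replicate 1 peak, in the right arm 5 of 49 and in the centre 6 of 38. Runs of a single replicate 2 peak held one in 26 of 1346 cases on X (1.93%), against 5.84% on the autosomes. The autosomes are pooled here and not split by arm.

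Peak width varied little along X. The median width of series-wide peaks was 246 bp in the left arm (quartiles 187 and 377), 235 bp in the right arm (181 and 342) and 235 bp in the centre (179 and 347), against 248 bp on the autosomes. In replicate 2 the medians were 254, 250.0 and 256 bp, and in replicate 1 they were 234, 230.0 and 186 bp. Peaks over 1 kb were few, with 13 in the left arm, 12 in the right arm and 13 in the centre in the series-wide list, and 24, 23 and 26 in replicate 2. Wider peaks had higher scores, with a Spearman's rho of 0.46 across the 1896 series-wide peaks on X and 0.46 across those on the autosomes. This coefficient describes peaks of 1 list, which are not replicates.

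The widest site on X was broken up differently in each list. In replicate 2 it was a single peak of 12428 bp, X 16929387 to 16941814, with a score of 111.42. Replicate 1 had 11 separate peaks of 170 to 855 bp inside that interval, with scores of 1.37 to 9.21, and the series-wide list had 2 long peaks, with scores of 30.36 and 9.72. A narrow peak just to the right was found in all 3 lists, at X 16943813 to 16944200 in replicate 1 (score 6.01), X 16943778 to 16944242 in replicate 2 (64.51) and X 16943703 to 16944257 in the series-wide list (33.22). This narrow peak had a higher series-wide score than either long one. The next widest series-wide peak was at X 3111786 to 3116572 in the left arm (4787 bp, score 27.4), where replicate 2 had 1 peak of 4850 bp (92.35) and replicate 1 had 2 peaks, the better with a score of 4.34. In the centre, the widest replicate 2 peak (X 6739469 to 6744530, 5062 bp, score 83.62) was divided into 5 series-wide peaks, and replicate 1 had none.

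**Figure D4:**
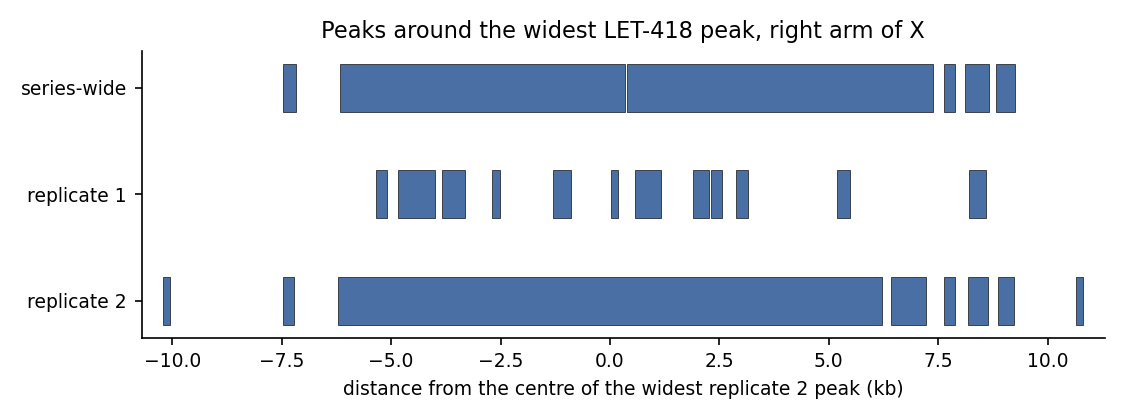
Peaks of the series-wide, replicate 1 and replicate 2 lists (rows) around the widest LET-418 peak on X, drawn to scale by distance in kb from the centre of that replicate 2 peak. A single replicate 2 peak of 12428 bp stands over 11 separate replicate 1 peaks and 2 long series-wide peaks, and a narrow peak 8.21 to 8.60 kb to the right in replicate 1 has a counterpart in the other rows.

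Scores on X were lower than on the autosomes in the series-wide list, and close to them in replicate 2. The scores are the authors' own, with no named scale, and are read only within a list. The median series-wide score was 6.51 in the left arm (quartiles 4.0 and 11.2), 6.85 in the right arm (4.17 and 11.1) and 6.17 in the centre (3.82 and 10.2), against 7.93 on the autosomes (4.75 and 13.98). In replicate 2 the medians were 8.90, 9.43 and 8.73, against 9.46 on the autosomes, and in replicate 1 they were 4.25, 3.75 and 4.63, against 5.40. The spread within each region was much larger than the differences between regions, and no test was made.

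The high end of the score range set the regions further apart. Of the series-wide peaks at or above the 90th percentile of all scores, 30 lay in the left arm (4.81% of its peaks), 27 in the right arm (4.01%) and 11 in the centre (1.84%), against 11.0% of autosomal peaks. The first 500 kb held 14 of the 30 left-arm peaks, and the rest of that arm had 2.92% of its peaks in this class, below the right arm. In replicate 2 the share was 9.47% in the left arm, 8.93% in the right arm and 8.15% in the centre, against 10.2%. In replicate 1 it rested on 2, 1 and 1 peaks. The highest score was 50.87, 45.97 and 30.32 in the left arm, right arm and centre of the series-wide list.

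Of the 10 highest-scoring series-wide peaks on X, 7 were in the left arm, 3 in the right arm and none in the centre, and 6 of them lay between X 156507 and 195828. The strongest was X 195356 to 195828, with a series-wide score of 50.87. It was also the strongest X peak of replicate 1 (X 195419 to 195775, score 18.77, rank 8 of its list) and had a replicate 2 score of 87.69 (rank 213). X 181082 to 181685 had 46.49 in the series-wide list, 13.52 in replicate 1 and 100.94 in replicate 2. X 14312441 to 14312841, the strongest of the right arm, had 45.97, 16.51 and 87.97 in the same lists. These 3 sites held the 3 highest X scores of replicate 1.

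The order differed in replicate 2. Its strongest X peak, X 16024453 to 16024976 in the right arm, had a score of 132.6 (rank 21 of its list), a series-wide score of 33.46 and no replicate 1 peak. The next, X 13945422 to 13945913 (116.16) and X 768072 to 768431 (114.09), were also without a replicate 1 peak. Among the 10 strongest series-wide peaks, X 1856212 to 1856612 and X 12480353 to 12480755 were the ones absent from replicate 1, with replicate 2 scores of 92.05 and 108.22. The site at X 12480353 was also the first peak right of the bound between centre and right arm. The last series-wide peak before that bound was X 12458040 to 12458251, with a score of 7.81. At the bound between left arm and centre, the nearest series-wide peaks were X 6134477 to 6134816 (score 2.54) and X 6151079 to 6151448 (5.55).

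All 86 replicate 1 peaks on X overlapped a replicate 2 peak and a series-wide peak, where the shares over the whole replicate 1 list were 99.0% and 99.8%. They fell in 73 replicate 2 peaks and 74 series-wide peaks. The 69 replicate 1 peaks that met a single replicate 2 peak, and were its only match, had midpoints a median of 32 bp away from it, and the replicate 2 peak was 1.76 times as wide at the median. Between the series-wide list and replicate 2 there were 1624 such pairs, with a median midpoint distance of 12.5 bp and a width ratio of 1.18. The scores of these pairs had a Spearman's rho of 0.83. Between the replicates the rho was 0.35 over the 69 pairs.

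Seen from the series-wide list, X peaks were found less often in replicate 1 and more often in replicate 2 than autosomal ones. Over the whole list 12.1% of series-wide peaks overlapped replicate 1 by 1 bp or more, and 93.3% overlapped replicate 2. On X, 74 of 1896 peaks overlapped replicate 1, which is 3.90% (Wilson 3.12 to 4.87), against 13.5% on the autosomes (12.9 to 14.1), with an odds ratio of 0.261 (interval 0.203 to 0.332, p = 3.46e-39 by two-sided Fisher's exact test, adjusted over 8 tests). For replicate 2 the share was 96.8% on X (95.9 to 97.5), against 92.8% on the autosomes (92.3 to 93.2), with an odds ratio of 2.35 (1.80 to 3.11, adjusted exact p = 7.75e-12). The Fisher's exact tests here and below also count peaks as independent, so their p-values are too small. They measure no spread between animals or chromosomes. The autosomes are pooled, and shares are not split by autosome here. With each autosome divided at the same fractions of its length as X, replicate 1 had 4.95 (centre of IV) to 84.0 (left arm of III) peaks per Mb. The left arm, right arm and centre of X had 6.68, 5.54 and 2.52. The series-wide list may share reads with both replicates, so these overlaps are not independent of it. Series-wide peaks in neither replicate were 61 on X, or 3.22%, against 7.11% on the autosomes and 6.57% in the whole list.

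Within X, the replicate 1 share was higher in the left arm than elsewhere. It was 6.09% in the left arm (38 of 624 peaks, Wilson 4.47 to 8.25), 2.97% in the right arm (20 of 674, 1.93 to 4.54) and 2.68% in the centre (16 of 598, 1.65 to 4.30). The left arm differed from the centre (odds ratio 2.36, 1.27 to 4.58, adjusted Fisher's exact p = 0.013) and from the right arm (2.12, 1.19 to 3.89, adjusted exact p = 0.014). The right arm and the centre did not pass (1.11, 0.542 to 2.32, adjusted exact p = 0.87). The left-arm excess lay in the first 500 kb, where 24 of 76 series-wide peaks overlapped replicate 1 (31.6%, 22.2 to 42.7), against 14 of 548 in the rest of that arm (2.55%, 1.53 to 4.24). As that stretch was picked after replicate 1 peaks were seen to crowd there, its high share is partly built into the choice. Both calls were lost under the following alternatives. With the first and last 500 kb left out, the left arm minus the centre was -0.12 percentage points and the left minus the right arm -0.46. Under a stricter rule of 50% coverage of the series-wide peak they were 1.54 (exact p = 0.086) and 1.26 (exact p = 0.15), and with peaks under 1 kb apart merged 3.03 (exact p = 0.093) and 3.25 (exact p = 0.052).

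The replicate 2 share was 97.0% in the left arm, 97.3% in the right arm and 96.0% in the centre. The odds ratio was 1.33 for the left arm against the centre (0.691 to 2.60), 1.52 for the right arm against the centre (0.784 to 3.01) and 0.874 for the left against the right arm (0.428 to 1.78). None of these passed (adjusted Fisher's exact p of 0.58, 0.33 and 0.85), and the intervals leave room for differences in either direction.

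At like replicate 2 scores, replicate 1 was scarcer on X than on the autosomes in the upper quintiles. In the lowest, overlaps were few and, on X, all in the first 500 kb. Over the whole of replicate 2, 8.65% of peaks overlapped replicate 1. In the lowest quintile of replicate 2 scores the share was 0.474% on X (3 of 633 peaks) and 0.456% on the autosomes. All 3 on X lay among the 13 peaks of the first 500 kb. The rest of the left arm had 0 of 223, the right arm 0 of 193 and the centre 0 of 204. In the second-lowest quintile the share was 0 of 667 peaks on X (Wilson upper bound 0.573%), against 1.01% on the autosomes. In the middle quintile it was 0.958% on X, against 3.31%, and in the next 2.05%, against 9.93%. In the highest quintile (24.2 and above) it was 8.86% on X (52 of 587, Wilson 6.82 to 11.4), against 34.0% on the autosomes (1134 of 3332). Within X that highest quintile had 12.6% in the whole left arm (24 of 191), 6.51% in the left arm beyond the first 500 kb (11 of 169 peaks, Wilson 3.67 to 11.3), 7.62% in the right arm (17 of 223) and 6.36% in the centre (11 of 173). The first 500 kb stood apart from the rest of X, with 13 of 22 peaks, or 59.1% (38.7 to 76.7). That stretch was picked after replicate 1 peaks were seen to crowd there, so a high share is partly built into the choice. It was not set against the ends of the autosomes. The autosomes are pooled here with their own crowded arms left in, so their share is not that of each autosome. Of the 100 strongest replicate 2 peaks on X, with scores of 59.43 to 132.6, 20 were called in replicate 1: 7 of 37 in the left arm, 7 of 38 in the right arm and 6 of 25 in the centre.

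**Figure D5:**
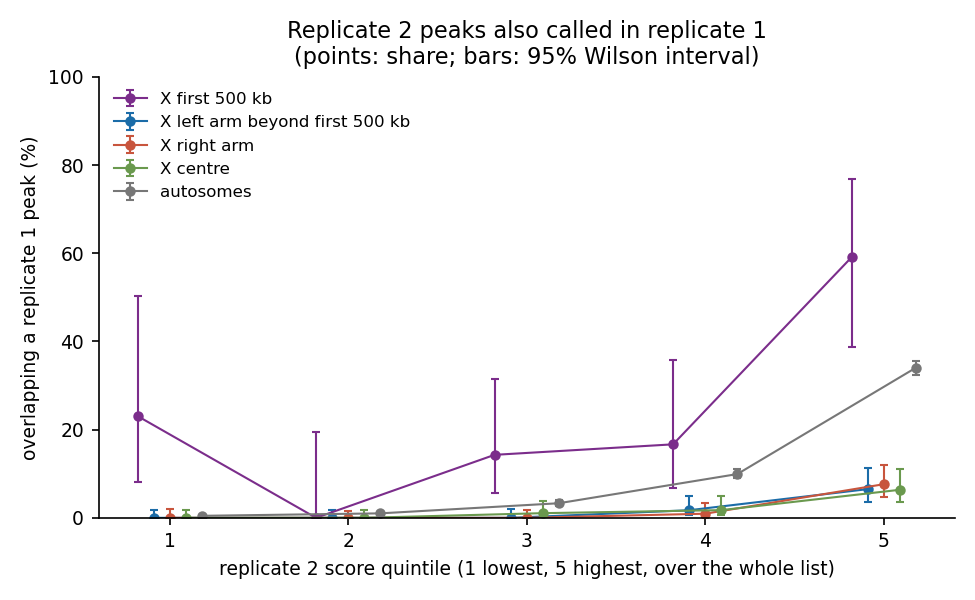
Share of replicate 2 peaks that overlap a replicate 1 peak (y axis, %) by quintile of the replicate 2 score over the whole list (x axis), for regions of X and for the autosomes, with 95% Wilson intervals. In the highest quintile the first 500 kb of X, picked after the values were seen, reaches 59.1% and the autosomes 34.0%. The rest of the left arm, the right arm and the centre lie between 6.36% and 7.62%. The autosomes are pooled, with their own crowded arms left in.

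A larger part of the replicate 2 peaks on X was missing from the series-wide list. Of the 3097 replicate 2 peaks on X, 1737 overlapped a series-wide peak, or 56.1% (Wilson 54.3 to 57.8), against 64.6% on the autosomes and 63.3% in the whole list, with an odds ratio of 0.698 (interval 0.646 to 0.756, p = 2.86e-19 by two-sided Fisher's exact test). The comparison was made after the values were seen, and since it counts peaks as independent, its p-value is too small. The share was 54.3% in the left arm, 57.5% in the right arm and 56.5% in the centre. The missing peaks were weak, with a median score of 5.32 in replicate 2, whereas the X peaks in the series-wide list had 16.4. This was not particular to X, as the same medians on the autosomes were 5.17 and 15.15. At like scores X lay below the autosomes in the lower 4 quintiles. From the lowest quintile up, 15.2%, 28.9%, 56.5% and 87.2% of X peaks were in the series-wide list, against 22.8%, 41.1%, 66.3% and 92.1% of autosomal peaks. In the highest quintile these shares were 99.7% and 99.9%.

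Finally, the arms of X stood less far above its centre than those of the autosomes in the series-wide list. With each autosome divided at the same fractions of its length, the arms together had 1.21 times the density of the centre on X and 1.48 times on the 5 autosomes pooled. The autosomal arms here are thus set by the bounds of X, and may not match each autosome's own arms. The single autosomes ran from 1.23 on V to 1.71 on III, so X was lowest in this list and V close to it. The ratio of X to the autosomes was 0.817 (0.734 to 0.909, p = 0.00053 by two-sided Fisher's exact test, adjusted over 3 lists). This test counts peaks as independent, so its p-value is too small, and it does not measure the spread between chromosomes. In replicate 2 the values were 1.27 on X and 1.37 on the autosomes (ratio 0.924, 0.850 to 1.01, adjusted exact p = 0.10), and in replicate 1 they were 2.44 and 2.93 (ratio 0.833, 0.471 to 1.56, adjusted exact p = 0.55). Neither replicate alone passed the threshold of 0.05. X was also not the lowest chromosome there, since V had 1.12 in replicate 2, and I and V had 1.88 and 2.41 in replicate 1. In replicate 1 each autosome had an arm far above its centre, from 2.90 times (right arm of I) to 6.91 times (left arm of III). The opposite arms ran from 0.736 times (left arm of V) to 1.60 times (right arm of IV). Crowding of replicate 1 in an arm was thus not particular to X.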

How the data were processed

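The authors deposited 3 peak lists, 1 per ChIP replicate and 1 for the whole series. Peaks were called with MACS on WS220, per the file headers and source column, and BWA and ce10 are named in the submitters' processing notes. Versions, calling thresholds, the use of inputs and the origin of the series-wide list are, in the sources used here, not given. The peak score is as deposited by the authors, with no named scale. No read counts are given. The depth is therefore unknown, it may differ between the replicates, and intervals cover counting error only.

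Lists were not filtered. Overlap means 1 bp or more. The length of X was taken as the end of its last peak in any list (17718866). Densities carry exact Poisson intervals and were compared by exact binomial tests against length. Shares carry Wilson intervals and were compared by Fisher's exact tests. Adjustment was by Benjamini-Hochberg, over 9 density tests, 8 share tests and 3 tests of the arms of X against those of the autosomes. Regions named are the strongest and widest peaks, longest gaps, extreme 500-kb bins and peaks at the bounds, by rule, and the first 500 kb, runs of peaks and replicate 2 peaks by score, chosen after their values were seen. Members and tests were chosen with earlier results of these data known. The density and share tests were tried on simulated independent counts, which lack the clustering of the real peaks. Overlap and merging were tried on planted cases. No gene or sequence was set against the peaks, since the annotation at hand is on WBcel235. Tests were run in SciPy 1.17.1 and NumPy 2.4.6 with pandas 2.3.3 under Python 3.11.15, and figures drawn in Matplotlib 3.10.9.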

Additional observations from a re-analysis of the deposited data

Results flagged for a closer look

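The density of the arms relative to the centre differed between X and the autosomes in the series-wide list, by a test of the difference itself. The ratio of X to the autosomes was 0.817 (95% exact interval 0.734 to 0.909, p = 0.00053 by two-sided Fisher's exact test, adjusted over 3 lists). The autosomes were pooled in this test and divided at the fractions of X, not at arm bounds of their own. V alone had an arm to centre ratio of 1.23, close to the 1.21 of X. The test counts peaks as independent, so its p-value is too small, and it does not measure the spread between chromosomes. The ratio of X to the autosomes did not pass in replicate 2 (0.924) or replicate 1 (0.833). The difference between the lists in this ratio was not tested.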

How the results depend on the processing

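No paired analysis was possible because there is no peak list for either input sample. Alternatives were read at an unadjusted exact p of 0.05, and the leaving out of the crowded replicate 1 sites and the merging of replicate 1 peaks were chosen after the data were seen. With either replicate list alone, the left arm to centre ratio ran from 1.17 to 2.65, the right arm to centre ratio from 1.39 to 2.19 and the left to right arm ratio from 0.838 to 1.21, the last above 1 with replicate 1. For series-wide peaks in both replicates these ratios were 2.45, 1.51 (exact p = 0.24) and 1.62 (exact p = 0.087). Fewer peaks entered that comparison, 74 in all. In replicate 1 without its crowded sites they were 1.13, 1.29 and 0.871, and with peaks under 1 kb apart merged they were 2.07 (exact p = 0.020), 1.59 (exact p = 0.19) and 1.30. For the share in replicate 1, left arm minus centre was 1.54 percentage points with 50% of the peak covered, 3.03 with merged peaks and -0.12 without the chromosome ends, and left minus right arm was 1.26, 3.25 and -0.46, with both calls lost in each of these alternatives. Both calls held at or above the median score (7.32 and 7.41) and with 3 equal parts (3.50 and 3.58). Right arm minus centre, near 0 throughout, turned to -0.094 at or above the median score, -0.22 with merged peaks and -0.075 with 3 equal parts. For the share in replicate 2, left arm minus centre turned to -0.39 and right arm minus centre to -0.34 at or above the median score, and left minus right arm to 0.16 without the ends. None of these reversals passed in its new direction. With either replicate alone, the median width was 234 to 254 bp in the left arm, 230.0 to 250.0 bp in the right arm and 186 to 256 bp in the centre. The median gap was 1860.0 to 12917 bp, 1567 to 38404 bp and 1740.0 to 345971 bp. The median score was 4.25 to 8.90, 3.75 to 9.43 and 4.63 to 8.73. The cause of these changes was not tested.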
